A study of Rattus norvegicus with 3 samples.

Results

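The matrix metalloproteinases Mmp2, Mmp3, Mmp9, Mmp11, Mmp12, Mmp13 and Mmp14 and the tissue inhibitors Timp1, Timp2 and Timp3 were examined in rat mesenchymal stem cells (MSCs) and in a pair of rat sarcoma cell lines. These 10 genes were taken by name from 13348 genes that had a named probe on the array. COS1NR is an osteosarcoma line and MFH1NR a line of malignant fibrous histiocytoma. Both lines were established from tumors induced with 4-HAQO in F344 rats and carry a p53 mutation, and each stands for a single tumor. The MSCs came from the femur bone marrow of F344 rats and were kept with more serum than the lines. The methods describe them as obtained by growth on plastic, while the design text calls them fresh isolates. The authors name it as a limitation that these cells were not sorted by surface markers. RNA of each cell type was hybridized to 1 Agilent whole rat genome array, labeled with Cy3, so that no value has a replicate culture behind it and no test of a difference between cell types was possible. The ages and sexes of the animals and the passage of the cells are not given in the sources used here.

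Matrix metalloproteinases are zinc-dependent endopeptidases that cut collagens, proteoglycans and other proteins around the cell. Most are secreted as inactive precursors and gain activity when the propeptide is removed, and the tissue inhibitors block the active enzymes by binding at the catalytic site. In bone, where collagen is laid down and removed throughout life, the family takes part in growth, remodeling and fracture repair. An mRNA level says nothing about whether an enzyme was secreted or activated.

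Levels are given as relative intensity, the processed intensity of a probe divided by the 75th percentile of its array, which is thus 1 on each array. Each of the 10 genes had 1 probe, and levels of different probes are not compared. A probe was counted as measured where the scanner software called it well above background, and where it was not, a ratio is a bound written as "at least". The lowest relative intensity with that call was 0.0304 in MSCs, against 0.0380 in COS1NR and 0.0302 in MFH1NR, and 0 spots were saturated. COS1NR and MFH1NR shared a slide and MSCs were on a different one, and in a ratio to MSCs the slide and the cells cannot be told apart. Of the 10 genes, 10 were well above background in MSCs and 9 in MFH1NR. In COS1NR, 8 were, Timp3 was not, and the spot of Mmp12 was discarded as non-uniform.

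The cell types were checked against marker genes. In MSCs 10 of 10 mesenchymal markers, such as the collagens Col1a1 and Col1a2, were well above background, as were 9 of 10 in COS1NR, where Thy1 was not, and 9 of 10 in MFH1NR, where Dcn was not. Their levels were unlike: the summed relative intensity of these markers was 1600 in MSCs, against 279 in COS1NR and 429 in MFH1NR, and 9 of the 10 were at least 2-fold lower in COS1NR and 6 in MFH1NR than in MSCs. Col1a2 itself was at 188 in MSCs, against 0.346 in COS1NR and 95.5 in MFH1NR. In MSCs 17 of 17 macrophage markers were also well above background, against 9 in COS1NR and 8 in MFH1NR, and their summed relative intensity was 202 in MSCs, against 13.1 in COS1NR and 5.39 in MFH1NR. Such sums over a marker list follow its brightest probes and are read only between arrays. The leukocyte marker Ptprc, which encodes CD45, was measured in MSCs at 0.0976 and was not well above background in either line. Of 7 osteoblast markers, 5 were well above background in MSCs and in MFH1NR and 4 in COS1NR. Relative to MSCs, 4 of them were at least 2-fold lower and 0 higher in COS1NR, and 3 were lower and 2 higher in MFH1NR. Among all genes, 19.4% were lower and 20.0% higher by that threshold in COS1NR, and 21.2% and 19.0% in MFH1NR. In RNA of a whole culture, fewer cells of a type and less RNA per cell cannot be told apart.

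Of the 10 genes, 3 belong to a cluster of 10 Mmp genes that follow each other on chromosome 8 of the rat GRCr8 assembly, in the order Mmp13, Mmp12, Mmp1b, Mmp3, Mmp1, Mmp10, Mmp8, Mmp27, Mmp20 and Mmp7. The 120 bases before the start of the transcript are shown for Mmp13, Mmp12 and Mmp3, which lie close together in the genome and of which Mmp3 differed from the other two in its order over the arrays, and for Mmp11 and Timp1 from other chromosomes. The sequences are from the RefSeq annotation of GRCr8, 5′ to 3′ in the direction of the gene. Capitals mark the AP-1 site TGANTCA, the TATA box TATAAA, the related letters TGAGTAA and the Sp1 site GGGCGG or its complement, searched on both strands except for the TATA box, which was searched on the strand of the gene.
Mmp13, chr8:12782709-12782828, plus strand: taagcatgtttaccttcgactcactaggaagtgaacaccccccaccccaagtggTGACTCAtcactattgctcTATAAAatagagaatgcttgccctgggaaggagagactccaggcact
Mmp12, chr8:12866532-12866651, plus strand: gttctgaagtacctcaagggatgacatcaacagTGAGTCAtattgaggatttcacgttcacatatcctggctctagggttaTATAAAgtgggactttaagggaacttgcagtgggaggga
Mmp3, chr8:12925161-12925280, plus strand: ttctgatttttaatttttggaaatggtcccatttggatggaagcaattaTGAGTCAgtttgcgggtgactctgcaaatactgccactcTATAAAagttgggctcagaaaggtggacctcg
Mmp11, chr20:12730164-12730283, plus strand: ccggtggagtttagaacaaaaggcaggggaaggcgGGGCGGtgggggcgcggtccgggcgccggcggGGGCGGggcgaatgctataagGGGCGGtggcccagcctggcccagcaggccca
Timp1, chrX:3771123-3771242, minus strand: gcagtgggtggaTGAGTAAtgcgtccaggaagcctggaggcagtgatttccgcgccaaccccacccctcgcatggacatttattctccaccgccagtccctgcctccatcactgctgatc

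The promoters of Mmp13, Mmp12 and Mmp3 had the same arrangement. An AP-1 match began 66 bases before the start in Mmp13, 87 bases before it in Mmp12 and 71 bases before it in Mmp3, and a TATA match followed at 47, 39 and 32 bases. Over the 250 bases before the start, 7 of the 10 genes of the cluster held both motifs. Of 33469 rat promoters, 6.34% held the AP-1 motif in that window, 8.06% the TATA box and 0.693% both. None of the 4 other genes that had a promoter in the table, Mmp11, Timp1, Timp2 and Timp3, held the AP-1 motif in this window. TGAGTAA, found in 2.38% of promoters, was held by Timp1 and, further from the start than the bases shown, by Mmp3. The Sp1 site, found in 30.5% of promoters, was held 3 times by Mmp11 and by Timp3 and once by Timp1 and by Timp2. Promoters of Mmp2, Mmp9 and Mmp14 were not used here. These matches describe letters only, since no binding of a factor was measured.

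**Figure D1:**
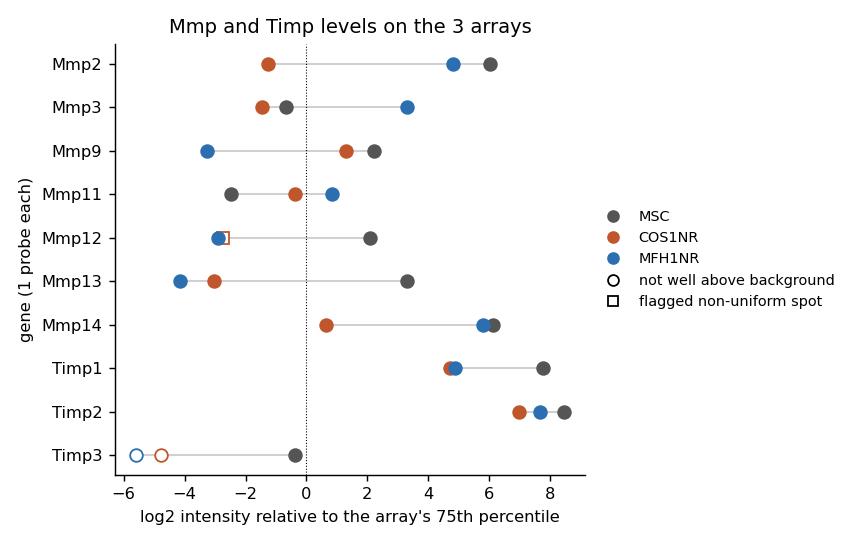
Level of the 10 genes on the 3 arrays, as log2 intensity relative to the 75th percentile of each array (horizontal axis), with 1 point per array. Open circles are not well above background and the open square is the discarded Mmp12 spot of COS1NR; Mmp2 and Mmp14 of COS1NR lie far to the left of the other arrays, and Mmp9 of MFH1NR does so.

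The gelatinases Mmp2 and Mmp9 cut denatured collagen and the type IV collagen of basement membranes. Both were highest in MSCs, but they differed in the line in which the level was low. Mmp2 had a relative intensity of 64.8 in MSCs, against 0.417 in COS1NR and 27.9 in MFH1NR. It was thus high in MSCs and in MFH1NR and low in COS1NR. Relative to MSCs, it was 155-fold lower in COS1NR (log2 ratio -7.28) and 2.33-fold lower in MFH1NR (log2 ratio -1.22). The second of these came to less than 2-fold without scaling of the arrays, with quantile normalization and with scaling on spike-in probes, at -0.46, -0.87 and -0.70 in log2. Between the lines, on the same slide, Mmp2 was 66.8-fold higher in MFH1NR, a log2 ratio of 6.06 above that of 99.5% of genes.

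Mmp9 had a relative intensity of 4.63 in MSCs, against 2.45 in COS1NR and 0.103 in MFH1NR. Here MFH1NR was the low one. Mmp9 was 1.89-fold lower in COS1NR than in MSCs (log2 ratio -0.92) and 45.0-fold lower in MFH1NR (log2 ratio -5.49). It was 23.8-fold lower in MFH1NR than in COS1NR, so that in the comparison of the lines the gelatinases lay in opposite directions. With normexp, another way to correct the background, the log2 ratios of Mmp9 in MFH1NR were -4.74 to MSCs and -3.85 to COS1NR.

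The probes of Mmp2, Mmp9 and Timp1 were printed 10 times on each array, which gives the technical spread within an array. The spots of Mmp2 spanned 62.4 to 66.9 in MSCs, 0.400 to 0.445 in COS1NR and 27.0 to 28.6 in MFH1NR. Those of Mmp9 spanned 4.38 to 4.79, 2.33 to 2.55 and 0.0930 to 0.114 in the same order. Those of Timp1 spanned 204 to 227, 24.9 to 27.6 and 28.2 to 31.1. The ranges of different arrays did not overlap for any of these genes, and the SD of log2 intensity over the 10 spots was between 0.0293 and 0.0948. This spread covers neither the labeling reaction nor the culture. As a wider yardstick, log2 ratios from 2 different probes of the same gene differed by a median of 0.28 in COS1NR over MSCs, 0.31 in MFH1NR over MSCs and 0.15 between the lines, over 1895 genes.

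**Figure D2:**
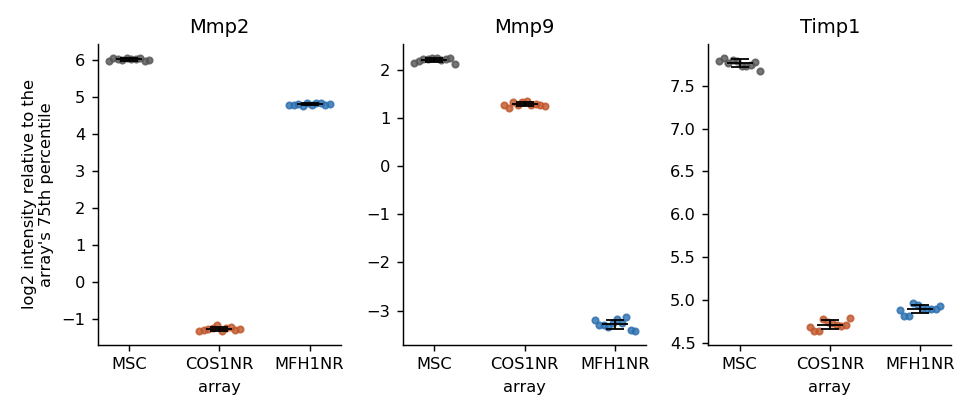
The 10 spots of the Mmp2, Mmp9 and Timp1 probes on each array, as log2 intensity relative to the 75th percentile of the array (vertical axis, a separate scale for each gene). Points are spots and bars are the mean ± SD over 10 spots of 1 array, a technical spread. For each gene the 3 arrays form groups that do not overlap, for Timp1 also between the lines at a log2 ratio of 0.18.

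Mmp14 encodes a membrane-anchored enzyme that cuts collagen at the cell surface and activates the precursor of Mmp2. Its relative intensity was 70.2 in MSCs, against 1.56 in COS1NR and 55.5 in MFH1NR. As with Mmp2, the level in COS1NR stood apart. It was 44.9-fold lower in COS1NR than in MSCs (log2 ratio -5.49) and 35.5-fold higher in MFH1NR than in COS1NR (log2 ratio 5.15). MFH1NR and MSCs differed by 1.27-fold, with a log2 ratio of -0.34 that turned to 0.42 without scaling, 0.10 with quantile normalization and 0.18 with spike-in scaling, so that no order of these 2 was established. Over the 3 centered log2 values, the distance of Mmp14 from Mmp2 was 1.27, and 10 of 7931 genes well above background on all 3 arrays were nearer to Mmp2. The nearest of these was Ptprv, at 0.34. Antkmt and the cadherin Cdh11 also came close, but neither was well above background in COS1NR, so that no distance is given for them.

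With the scaling used here, the stromelysins Mmp3 and Mmp11 were the members with their highest level in MFH1NR. With some other scalings Mmp14 was highest there too, as given above. Mmp3, which degrades proteoglycans and activates other precursors of the family, had a relative intensity of 0.632 in MSCs, against 0.367 in COS1NR and 9.86 in MFH1NR. MFH1NR was the high one and the other two lay near each other. Mmp3 was 15.6-fold higher in MFH1NR than in MSCs (log2 ratio 3.96) and 26.9-fold higher than in COS1NR (log2 ratio 4.75). COS1NR was 1.72-fold below MSCs. Mmp11, a stromelysin that is activated inside the cell by furin, had a relative intensity of 0.178 in MSCs, against 0.764 in COS1NR and 1.80 in MFH1NR. It was lowest in MSCs, being 4.29-fold higher in COS1NR (log2 ratio 2.10) and 10.1-fold higher in MFH1NR (log2 ratio 3.34). MFH1NR was 2.36-fold above COS1NR.

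Mmp13, the collagenase that opens the triple helix of fibrillar collagen and is made in rodent bone and cartilage, had a range of 7.43 in log2 over the arrays, the widest of the 10 genes with this scaling, although without scaling, with spike-in scaling and with normexp that of Mmp2 was wider. Its relative intensity was 9.75 in MSCs, against 0.121 in COS1NR and 0.0566 in MFH1NR. It was high in MSCs and close to the background limit in both lines. It was 80.8-fold lower in COS1NR (log2 ratio -6.34) and 172-fold lower in MFH1NR (log2 ratio -7.43) than in MSCs. With normexp these log2 ratios were -5.47 and -6.12. MFH1NR was 2.13-fold below COS1NR, which came to less than 2-fold without scaling (-0.73 in log2), with spike-in scaling (-0.30) and with normexp (-0.65). Among the 7931 genes measured on each of the 3 arrays, the nearest to Mmp13 over the centered log2 values was Lbp, at a distance of 0.24, and the nearest to Mmp9 was Ifitm3, at 0.08. Prss12 and Chmp4c came close to Mmp13 and the receptor Nrp1 and Apoh to Mmp9, but the former were not well above background in either line and the latter not in MFH1NR, so that no distance is given. With 3 arrays, such a likeness says little beyond the order and size of 3 values.

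Mmp12, the elastase of macrophages, had a relative intensity of 4.25 in MSCs and 0.134 in MFH1NR, which was 31.7-fold lower (log2 ratio -4.99). In COS1NR its only spot was called non-uniform. With that spot kept, its relative intensity was 0.148, which is 28.7-fold below MSCs and 1.11-fold above MFH1NR.

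Mmp9, Mmp12 and Mmp13 are also made by macrophages or osteoclasts, and markers of these cells were also lower in the lines. Of the 17 macrophage markers, 17 were at least 2-fold lower in COS1NR and 17 in MFH1NR than in MSCs, with median log2 ratios of -4.23 and -5.42. The lysozyme gene Lyz2 was at 54.8 in MSCs and not well above background in either line. Tyrobp, an adaptor of myeloid receptors, was at 20.2 in MSCs, against 0.0650 in COS1NR and 0.0617 in MFH1NR. Of the osteoclast markers, Acp5, the tartrate-resistant acid phosphatase, was at 41.7, 0.132 and 0.0367 in the same order, while Calcr, the calcitonin receptor, was not well above background on any array. Atp6v0d2, a proton pump subunit of osteoclasts and the third such marker with a probe, was at 0.297 in MSCs and lower by at least 7.83-fold in COS1NR and at least 8.71-fold in MFH1NR. Neutrophils also store Mmp9, and of 7 neutrophil markers 2 were well above background in MSCs, while COS1NR had 4 and MFH1NR 1. Their summed relative intensity in MSCs, COS1NR and MFH1NR was 0.393, 1.02 and 0.196. In COS1NR, Mmp9 stood at a log2 ratio of -0.92 to MSCs, while the macrophage markers there lay between -10.50 and -1.36, bounds included. The part of macrophages, osteoclasts and neutrophils in the levels of Mmp9, Mmp12 and Mmp13 was not tested.

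**Figure D3:**
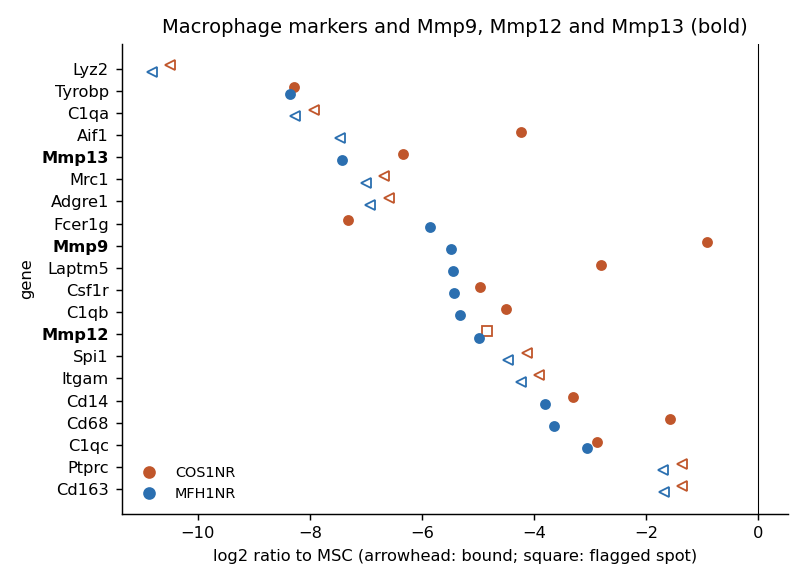
Log2 ratio to MSCs (horizontal axis) of 17 macrophage markers and of Mmp9, Mmp12 and Mmp13 (bold) in COS1NR and MFH1NR, 1 array each. Arrowheads are bounds for probes not well above background in the line and the square is the discarded Mmp12 spot; Mmp9 of COS1NR, at -0.92, lies to the right of the 17 markers of that line.

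The inhibitors Timp1, Timp2 and Timp3 were highest in MSCs, although for Timp2 the log2 ratio of MFH1NR to MSCs came as close to equal as -0.01 without scaling. Timp1, a secreted inhibitor that binds the precursor of Mmp9, had a relative intensity of 217 in MSCs, against 26.2 in COS1NR and 29.7 in MFH1NR. The lines lay near each other, 8.31-fold (log2 ratio -3.05) and 7.31-fold (log2 ratio -2.87) below MSCs. Between the lines, the log2 ratio of Timp1 was 0.18, and with spike-in scaling it was 0.98.

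Timp2, which blocks Mmp14 and also links it to the precursor of Mmp2, had a relative intensity of 349 in MSCs, against 127 in COS1NR and 206 in MFH1NR. Its range of 1.47 in log2 was the smallest of the 10 genes. It was 2.76-fold lower in COS1NR than in MSCs (log2 ratio -1.46) and 1.70-fold lower in MFH1NR, where the log2 ratio of -0.76 shrank to -0.01 without scaling and -0.04 with quantile normalization. MFH1NR was 1.62-fold above COS1NR.

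Timp3, which is bound to the matrix and also inhibits enzymes of the Adam family, was measured in MSCs, at 0.770. Neither COS1NR nor MFH1NR had it well above background, which puts COS1NR at least 20.3-fold and MFH1NR at least 25.5-fold below MSCs. These bounds hold for the processed intensities, and with normexp the log2 ratios came to -2.80 and -3.17, which are smaller differences. No ratio between the lines can be given.

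The log2 ratios of enzymes were set against those of inhibitors known to bind them. In COS1NR relative to MSCs, the log2 ratio of Mmp2 minus that of Timp2 was -5.82, a 56.4-fold difference, and the log2 ratio of Mmp14 minus that of Timp2 was -4.03, a 16.3-fold difference. In MFH1NR relative to MSCs these differences were -0.45 and 0.42, both within the 0.99 that 90% of pairs of probes of the same gene stayed under in that comparison. Between the lines, the log2 ratio of Mmp2 exceeded that of Timp2 by 5.36 and that of Mmp14 exceeded it by 4.45. For Mmp9 and Timp1 the difference was 2.13 in COS1NR and -2.62 in MFH1NR relative to MSCs, since Mmp9 was lower by less than Timp1 in COS1NR and by more in MFH1NR. Between the lines it was -4.75. A common scaling factor between arrays drops out of these differences, unlike quantile normalization, and they say nothing of the amounts of either product.

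**Figure D4:**
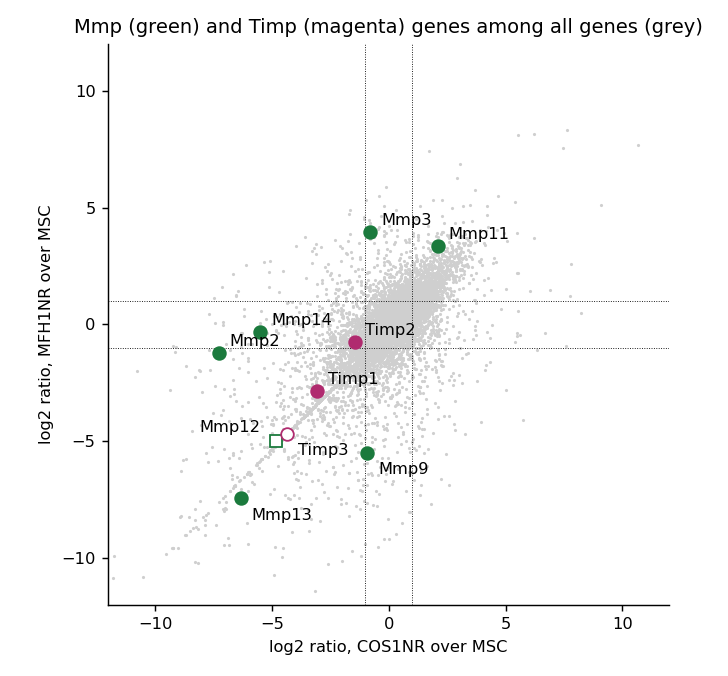
Log2 ratio to MSCs in COS1NR (horizontal axis) and in MFH1NR (vertical axis) for the Mmp genes (green), the Timp genes (magenta) and all genes used (grey), with dotted lines at 2-fold. Open symbols are a bound on Timp3 and the discarded COS1NR spot of Mmp12; Mmp11 lies in the upper right, Mmp3 at the top and Mmp2 and Mmp14 at the left near the middle height, where Mmp14 has no settled sign in MFH1NR.

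Counted at 2-fold, 6 of the 9 genes with a value on both arrays were lower and 1 was higher in COS1NR than in MSCs. Among all 10021 genes with a value on both arrays, 19.4% were lower and 20.0% higher by that threshold. In MFH1NR 6 of 10 were lower than in MSCs and 2 were higher, against 21.2% lower and 19.0% higher among all genes. In both lines together 4 genes were lower, which were Mmp2, Mmp13, Timp1 and Timp3, against 12.9% of all genes, and Mmp11 was higher, against 10.8%. Between the lines, 4 of the 9 genes with a value on both arrays were higher in MFH1NR, namely Mmp2, Mmp3, Mmp11 and Mmp14, and 2 were lower, Mmp9 and Mmp13, where 11.7% of the 10017 genes with a value on both arrays were higher and 14.2% lower. Relative to MSCs and with bounds entered as such, the median log2 ratio was -3.05 over 9 genes in COS1NR, or -3.70 over 10 with the discarded Mmp12 spot kept, and -2.04 over 10 genes in MFH1NR, where the median of all genes was 0.11 and 0.02. Both comparisons share the MSC array.

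Of the remaining family, 16 genes were listed, 15 had a probe and 8 were well above background on at least 1 array. Relative to MSCs, 6 of these were at least 2-fold lower and 0 higher in COS1NR, against 19.4% and 20.0% of all genes. In MFH1NR 2 were lower and 2 higher, which is near the 21.2% and 19.0% of all genes in that comparison. Their median log2 ratio was -1.66 in COS1NR and -0.80 in MFH1NR. Mmp16, a membrane-type enzyme related to Mmp14, had a relative intensity of 3.87 in MSCs and 17.1 in MFH1NR and was not well above background in COS1NR. Relative to MSCs, COS1NR was lower by at least 102-fold and MFH1NR higher by 4.41-fold, and at least 450-fold higher in MFH1NR than in COS1NR. Timp4, at 0.128 in MSCs and 0.423 in MFH1NR, was lower by at least 3.37-fold in COS1NR than in MSCs and 3.31-fold higher in MFH1NR. Mmp23 was at 23.1 in MSCs and not well above background in either line, which puts COS1NR at least 609-fold and MFH1NR at least 765-fold lower. Mmp28 was 2.97-fold lower in COS1NR and 2.02-fold lower in MFH1NR.

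In the chromosome 8 cluster, 9 of the 10 genes had a probe and 4 were well above background on at least 1 array. These were Mmp13, Mmp12, Mmp3 and Mmp10, which was near the limit with 0.0721 in MSCs and 0.0421 in MFH1NR. Mmp1, Mmp8, Mmp27, Mmp20 and Mmp7 were not well above background on any array, although Mmp1, Mmp20 and Mmp7 also hold both the AP-1 motif and the TATA box. Mmp13 and Mmp3, with Mmp12 and Mmp1b between them, differed in opposite directions in MFH1NR relative to MSCs, by -7.43 and 3.96 in log2.

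**Figure D5:**
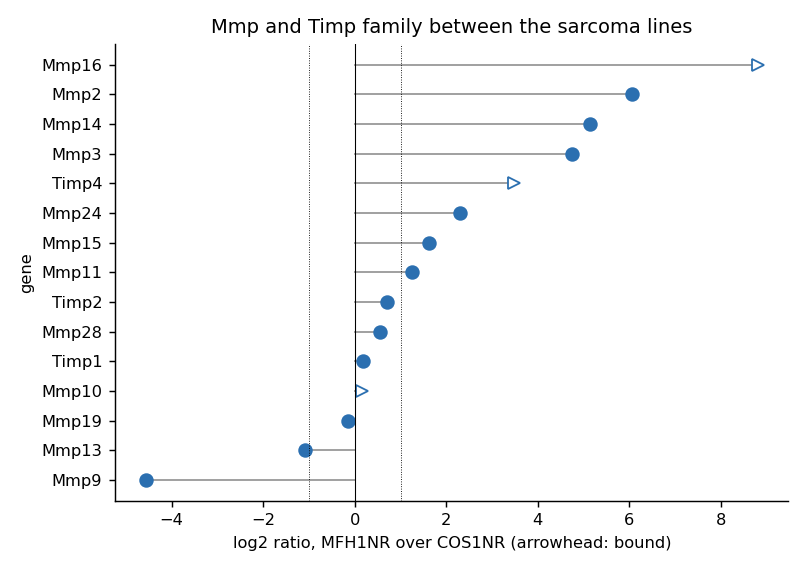
Log2 ratio of MFH1NR over COS1NR (horizontal axis), 1 array each on the same slide, for the Mmp and Timp genes that had a ratio, ordered by size. Filled points are measured ratios, arrowheads are bounds where COS1NR was not well above background and dotted lines mark 2-fold; Mmp2, Mmp3 and Mmp14 lie at 4.75 or more and Mmp9 at -4.57.

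The activators and other partners of these enzymes were taken from 5 further lists. The plasminogen system makes plasmin, which can activate precursors of the family. Of its 7 genes above background, 5 were at least 2-fold lower and 1 higher in COS1NR, against 19.4% and 20.0% of all genes. In MFH1NR 6 were lower and 1 higher, against 21.2% and 19.0% of all genes. The median log2 ratios were -3.33 and -4.86. The urokinase gene Plau was at 18.2 in MSCs, not well above background in COS1NR and 0.0624 in MFH1NR, at least 478-fold and 291-fold lower. Its receptor Plaur was 26.7-fold lower in COS1NR and 29.1-fold lower in MFH1NR. The tissue activator Plat was 17.8-fold and 3.67-fold lower in the same order. Serpine2 was 2.63-fold lower in COS1NR, and in MFH1NR it was lower by at least 217-fold.

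Among 13 surface and binding regulators, 7 were lower and 3 higher in COS1NR by that threshold, against 19.4% and 20.0% of all genes, so that the count of higher genes was near the share. In MFH1NR 8 were lower and 1 higher, against 21.2% and 19.0% of all genes. The medians were -1.02 and -1.22 in log2. The protease inhibitor A2m was 79.0-fold lower in COS1NR and 16.3-fold lower in MFH1NR, and Tfpi2 was at least 445-fold and 56.3-fold lower. Pcsk6, a proprotein convertase, was 2.34-fold lower in COS1NR, and MFH1NR was at least 137-fold lower. Spock2 was 3.31-fold and 4.98-fold lower and the integrin chain Itgb3 at least 5.42-fold and at least 6.81-fold lower. Lcn2, whose product forms a complex with Mmp9, had a relative intensity of 0.0576 in MSCs and 11.2 in COS1NR and was not well above background in MFH1NR. It was 194-fold higher in COS1NR than in MSCs, and MFH1NR was at least 370-fold below COS1NR, and Mmp9 was likewise lower in MFH1NR than in COS1NR.

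Of 11 Adam and Adamts genes above background, which encode sheddases and proteoglycan-cutting enzymes, 7 were lower and 0 higher in COS1NR, against 19.4% and 20.0% of all genes. In MFH1NR 7 were lower and 1 higher, against 21.2% and 19.0% of all genes. The medians were -1.34 and -1.56 in log2. Adamts4 was 2.87-fold and 12.8-fold lower, and Adamts6 at least 6.86-fold and 5.58-fold lower. Adam15 was 2.99-fold and 2.95-fold lower, Adam19 was 2.54-fold and at least 5.89-fold lower, and Adamts12 was at least 3.66-fold and at least 4.60-fold lower. Adamts7 was at 2.97 in MSCs, against 4.08 in COS1NR and 0.399 in MFH1NR, so that MFH1NR was 10.2-fold below COS1NR.

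Of 10 lysosomal cathepsins and their cystatin inhibitors, 6 were lower and 0 higher in COS1NR, against 19.4% and 20.0% of all genes. In MFH1NR 8 were lower and 1 higher, against 21.2% and 19.0% of all genes. The medians were -1.11 and -1.23 in log2. Ctsk, the collagen-degrading cathepsin of osteoclasts, had a relative intensity of 25.1 in MSCs, against 0.0607 in COS1NR and 7.25 in MFH1NR. It was high in MSCs and MFH1NR and low in COS1NR, as were Mmp2 and Mmp14, being 413-fold lower in COS1NR and 3.46-fold lower in MFH1NR than in MSCs and 119-fold higher in MFH1NR than in COS1NR. Ctss was lower by at least 137-fold in COS1NR and by at least 172-fold in MFH1NR. Ctsh was lower by at least 474-fold in COS1NR and, measured, by 76.9-fold in MFH1NR. Ctsb was 2.10-fold and 2.22-fold lower and its inhibitor Cst3 2.22-fold and 2.16-fold lower. The inhibitor Cst6 was 3.10-fold lower in COS1NR and 8.56-fold higher in MFH1NR.

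Subunits of AP-1 and other transcription factors known to act on Mmp promoters made up the last list. Of 9 genes above background, 3 were lower and 2 higher in COS1NR, against 19.4% and 20.0% of all genes. In MFH1NR 4 were lower and 2 higher, against 21.2% and 19.0% of all genes. The counts of higher genes were thus near the shares of all genes. The medians were -0.26 and -0.36 in log2. Junb, an AP-1 subunit, was 7.33-fold lower in COS1NR and 17.3-fold lower in MFH1NR. Fosl1, another subunit, was at 8.62 in MSCs, against 21.0 in COS1NR and 3.22 in MFH1NR. The Ets factor Etv4 was 13.4-fold higher in COS1NR than in MSCs and the NF-kappaB subunit Rela was 2.63-fold lower in COS1NR and 2.93-fold lower in MFH1NR. Over the 6 lists, 34 of 58 genes were lower and 6 higher in COS1NR, against 19.4% lower and 20.0% higher among all genes. In MFH1NR 35 were lower and 8 higher, against 21.2% and 19.0% among all genes, and the count of lower genes came to 23 without scaling.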

How the data were processed

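RNA of MSCs, COS1NR and MFH1NR was measured on 1 one-color Agilent whole rat genome array each. The authors deposited processed intensities from Agilent Feature Extraction, version 10.5.1.1 per the file headers and 9.1 per the labels, with background subtraction and detrending and without scaling between arrays. The deposited series table held the same intensities on each array. Labels and methods name different RNA isolation and labeling kits. There were 0 columns of per-sample values that were not used.

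Control spots and spots flagged as outliers, between 187 and 217 per array, were left out, and spots of a probe were averaged in log2. The 75th percentile of each array over spots that are not controls was subtracted in log2, with Python 3.11.15 and pandas 2.3.3. Probes were named through their RefSeq accession with the gene table of GRCr8, which named 16812 of 41001 probes, and the brightest probe stood for a gene. Genes well above background on at least 1 array, 10035 in all, entered counts and medians. In ratios a dim value was replaced by the higher of its own and the lowest intensity well above background on that array. Of 43379 spots that are not controls, 59.7% in MSCs, 56.6% in COS1NR and 58.2% in MFH1NR were well above background. The number of arrays limits the precision. With 1 array per cell type no p-value was computed, and 2-fold is a threshold of size alone.

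The 10 genes were all described. Of each list of other protease genes, those at least 2-fold from MSCs in the same direction in both lines were named, or the 5 with the largest mean change where there were more, and the 2 that differed most between the lines, together with the 3 genes nearest to Mmp2, Mmp9 and Mmp13 by Euclidean distance, which used the scaled values as they were. Since some of these were dim, distances are given over genes well above background on all 3 arrays, a choice made after seeing the data. Marker lists were described by counts and sums, and the 3 osteoclast markers with a probe singly. Lists for T cells, B cells, erythroid and endothelial cells were also counted. In MSCs 5 of 7 T-cell, 0 of 2 B-cell, 1 of 4 erythroid and 2 of 5 endothelial markers with a probe were well above background. A gene that this rule names is not reported here. A few further list genes were named for their role or place, after their values were seen. The genes and lists were chosen with earlier results of these data known. Alternatives were no scaling, scaling by the median or by spike-in probes, quantile normalization, normexp with an offset of 50 in limma 3.58.1, the series table, the mean over probes, flagged spots kept, a common floor, a 3-fold threshold and other filters on dim probes. The scripts were tested on simulated data. Promoters came from the RefSeq table of GRCr8, which held 7 of the 10 genes.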

Additional observations from a re-analysis of the deposited data

Results flagged for a closer look

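Among the 10 genes and the protease genes named from the lists, 7 differed from MSCs in opposite directions in COS1NR and MFH1NR. Each did so by more than 0.31 in log2, which is how far 2 probes of the same gene typically lay apart (median) in MFH1NR over MSCs. All of them except Mmp3 had been named because they differed most between the lines in their list. Their opposite directions were thus largely set by that choice, and the share over all genes is not given. With 1 array each, the difference between the lines was not tested. The log2 ratio of Mmp3 to MSCs was -0.79 in COS1NR and 3.96 in MFH1NR. For Mmp16 it was at most -6.67 and 2.14, and for Timp4 at most -1.75 and 1.73. Lcn2 had 7.60 in COS1NR and at most -0.93 in MFH1NR, and Fosl1 had 1.29 and -1.42. Adamts7 had 0.46 and -2.90, and Cst6 had -1.63 and 3.10. Both ratios of a gene share the MSC array, and a deviation of that array moves both the same way. Such a shift can make or remove opposite signs where 1 ratio is small, as for Adamts7 in COS1NR at 0.46.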

How the results depend on the processing

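Of 27 log2 ratios of the 10 genes, 21 were past 2-fold, and 19 of these kept their direction and stayed past 2-fold under all 9 alternatives. The exceptions were Mmp2 in MFH1NR over MSCs and Mmp13 between the lines, given with their values above. Of those under 2-fold, Mmp3 and Mmp9 in COS1NR over MSCs reached -1.06 and -1.20 and Timp2 between the lines reached 1.49. The sign of Mmp14 in MFH1NR over MSCs turned, to 0.42 without scaling, 0.10 with quantile normalization and 0.18 with spike-in scaling. Without scaling all genes together had a median of 0.52 for COS1NR and 0.79 for MFH1NR over MSCs and of 0.27 between the lines, and with spike-in scaling -0.16, 0.55 and 0.71, so ratios under these settings are shifted by about as much. In MFH1NR over MSCs, Mmp3 came to 4.72 and Mmp11 to 4.09 without scaling, and between the lines Mmp2 came to 6.85, Mmp14 to 5.94 and Mmp9 to -3.78 with spike-in scaling.

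Normexp, added after seeing the data on the median spot signal in place of the mean signal, moved the difference of Mmp14 and Timp2 to -3.70 in COS1NR and 0.74 in MFH1NR over MSCs, that of Mmp2 and Timp2 to -5.49 in COS1NR, and that of Mmp9 and Timp1 to -1.90 in MFH1NR over MSCs and -4.07 between the lines. Quantile normalization moved Mmp2 and Timp2 to -0.82 in MFH1NR, and Mmp9 and Timp1 to 1.79 in COS1NR and -3.11 in MFH1NR over MSCs. The count of members lower in MFH1NR than in COS1NR was 1 in place of 2 without scaling, with spike-in scaling, with normexp and at 3-fold. Other protease genes lower in MFH1NR than in MSCs numbered 23 in place of 35 without scaling. Beyond the shift in the scaling, the cause was not tested. A second probe of a gene could not be tried, since each of the 10 genes had 1 probe. No paired analysis was possible because each cell type had 1 array. Dim probes give bounds only, so levels of Timp3 in both lines have no order.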
